A study of Mus musculus with 4 samples.

Results

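The mitochondrial carriers of the SLC25 family were described here in activated mouse CD4+ T cells with and without Pdk4. The members are the genes whose symbol is Slc25a followed by a number, as far as they are reported here. This gave 46 carriers among the 23238 gene symbols measured. RNA came from 2 wild-type (WT) and 2 Pdk4-deficient (PDK4 KO) libraries, all on the C57BL/6j strain. All 4 libraries share the same culture: naive CD4+ T cells, magnetically sorted from spleen and lymph nodes, received CD3 and CD28 stimulation plus IL-2 over 48 hours. The labels give neither the design of the Pdk4 allele nor the age and number of the mice. The series asks which transcripts differ between the genotypes. Pdk4 encodes a kinase that inhibits the pyruvate dehydrogenase complex of the mitochondrial matrix.

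Charged metabolites cross the inner mitochondrial membrane through transport proteins, of the SLC25 family or of others. SLC25 proteins are nuclear-encoded, and most of them sit in that membrane. Each is built from similar repeats and moves its substrate by switching between a state open to the cytosol and a state open to the matrix. The substrates include ADP and ATP, phosphate, di- and tricarboxylates, amino acids, acylcarnitines, cofactors, iron and glutathione. In dividing T cells they supply oxidative phosphorylation, feed one-carbon metabolism and let citrate leave for lipid synthesis.

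Libraries were sequenced from the 3′ end of polyadenylated transcripts, so the number of reads does not grow with transcript length and levels of different genes can be set side by side without a correction for length. Neither the annotation nor the handling of multiply matching reads was stated, so such comparisons hold only as far as reads were assigned alike. Reads may include PCR copies, and no molecular barcode is named in the labels. Levels are counts scaled to library size as CPM, with TMM factors, which assume that most genes do not differ between libraries. Total counts lay between 8837810 and 9739624 per library. A floor of 3 counts corresponds to 0.307 to 0.341 CPM in a single library, and covers counting error only. No label says that the replicates of a genotype are separate animals or cultures. The p-values therefore measure only how these samples scatter, which may be technical. Pdk4 was at or under the floor in every library (1 and 0 counts in wild type, 0 and 2 in knockout), so it checks nothing about the labels. Cd4 itself was at 252 and 255 CPM in wild type and at 269 and 251 in knockout. Of 7 tested CD4 T cell markers 0 passed the test, and 2 had an unadjusted p under 0.05 in edgeR. These were Cd3d (643 and 684 CPM in wild type, 585 and 603 in knockout) and Cd3g (68.4 and 67.3, and 49.6 and 62.4 CPM). Each was lower in both knockout libraries, and the other tested markers of the list overlapped. Of 9 tested B cell markers 8 fell in the knockout, their summed level going from 128 and 131 CPM to 25.8 and 27.1 CPM, with Pax5 at 0 in all libraries. Of 10 tested CD8 T and NK cell markers 1, Gzma, fell, and the summed level of the list was 566 and 570 CPM against 407 and 362 CPM, with Gzmk at 0. Most of that drop was Gzma itself, at 220 and 219 CPM in wild type and 76.2 and 51.3 CPM in knockout. The other 9 tested markers of the list did not pass the test. With Gzma, 3 of the 10 had an unadjusted p under 0.05 in edgeR, where 13.5% of all tested genes did. The others were Cd8a (2.62 and 2.96 CPM in wild type, 0.409 and 0.544 in knockout) and Klrb1c (3.53 and 4.86, and 1.13 and 0.762). Each was low, and lower in both knockout libraries, as was Prf1, while the other tested markers overlapped. Of 3 tested myeloid markers 0 passed the test (1 had an unadjusted p under 0.05 in edgeR), at 112 to 128 CPM in wild type and 146 to 151 CPM in knockout, with Fcgr1 and Mpo at 0. Nearly all of that sum was Cst3 (123 and 108 CPM in wild type, 143 and 142 in knockout), a broadly expressed gene, while Lyz2, Csf1r, Cd14, Itgam and Adgre1 were too low to be tested. The part of these cells in the carrier levels was not tested, and in bulk RNA fewer cells of a type and less RNA per cell cannot be told apart.

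Carrier mRNA was led by the phosphate carrier, the ADP/ATP translocases, the NAD carrier Slc25a51 and the glutathione carrier Slc25a39. Together these 5 genes, Slc25a3, Slc25a5, Slc25a51, Slc25a4 and Slc25a39, held 63.0% and 64.8% of the summed carrier level in wild type and 64.6% and 62.4% in knockout. Slc25a3 alone held 32.8% and 32.1%, and 35.8% and 32.7%. By role, the summed level of the ADP/ATP translocases was 283 and 317 CPM in wild type and 273 and 267 CPM in knockout, and the knockout was also below, without overlap, for di- and tricarboxylate carriers (98.0 and 110.1 against 90.6 and 89.4 CPM) and for nucleotide and cofactor carriers (308 and 311 against 271 and 302 CPM). The knockout was above, without overlap, for iron and glutathione carriers (220.2 and 222 against 238 and 229 CPM) and for the acylcarnitine carrier (26.0 and 30.2 against 30.8 and 31.1 CPM). The sums of the other roles overlapped. Such sums follow their highest members. Among nucleotide and cofactor carriers, Slc25a51 averaged 162 CPM in wild type and 134 in knockout, while the median log2 fold change of the role was 0.02. Among the translocases, Slc25a4 averaged 147 and 121 CPM and Slc25a5 153 and 148 CPM (wild type first). No test was made of these sums, and among single genes 43.4% of all tested had no overlap in one direction or the other. The summed level of all 46 carriers was 1846 and 1879 CPM in wild type and 1854 and 1809 CPM in knockout, so the 2 genotypes overlapped. Of the 46 carriers, 35 had enough counts to be tested, 5 had counts but did not pass the filter, and 6 had no count in any library.

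**Figure D1:**
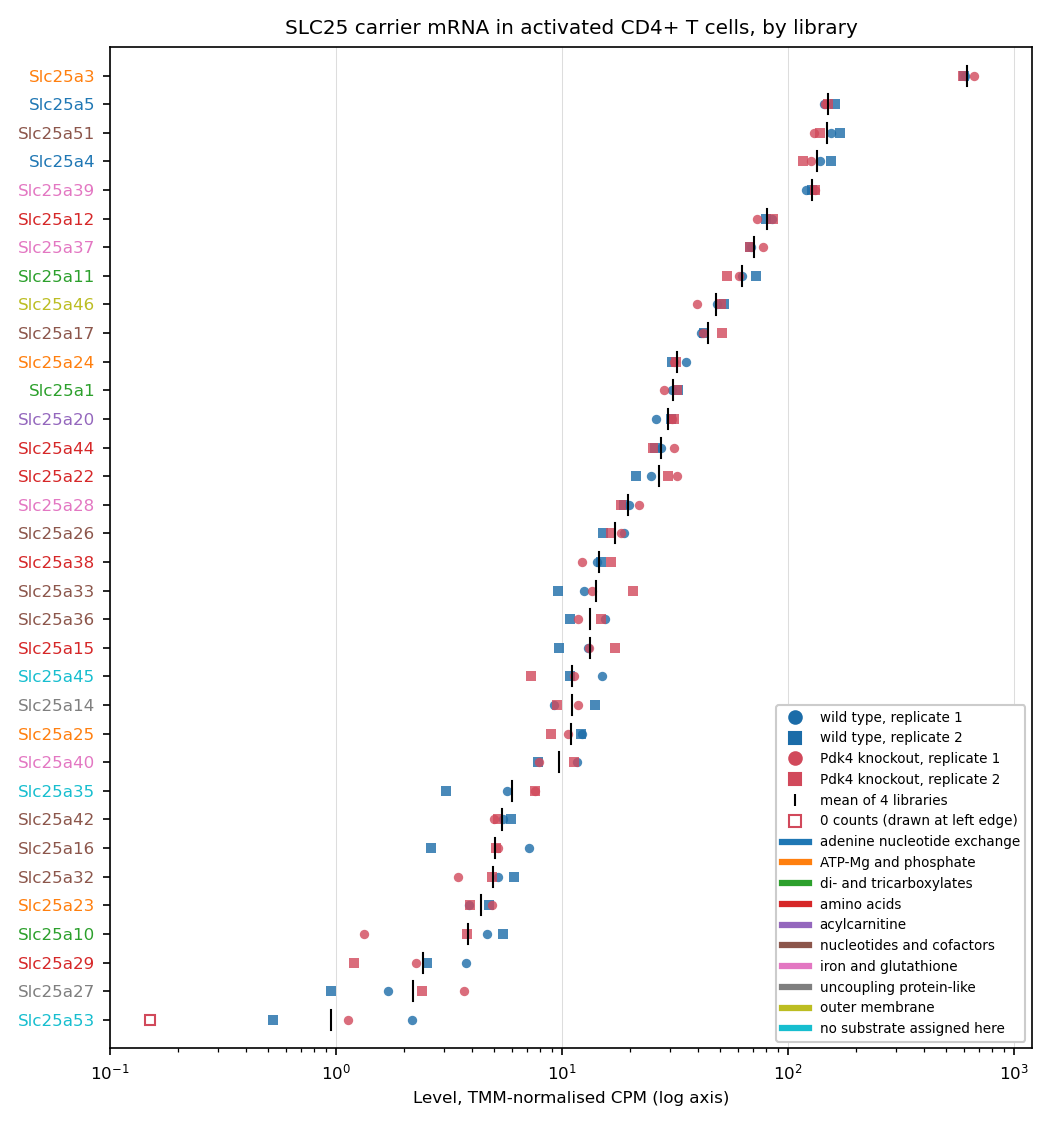
Level of 34 of the 35 tested carriers, in TMM-normalised CPM on a log axis, with 1 point per library (blue for wild type, red for Pdk4 knockout), a black tick at the mean of the 4 libraries, and the gene names coloured by role. Slc25a3 stands alone at the top with 592 to 663 CPM, followed by Slc25a5, Slc25a51, Slc25a4 and Slc25a39 between 116 and 170 CPM, and in most rows the points of the genotypes lie close together.

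Ranked by mean level, neighbouring carriers had no overlap between their libraries at only a few steps. The 4 libraries of Slc25a3, with a lowest value of 592 CPM, did not overlap those of Slc25a5, whose highest was 162 CPM. Slc25a5, Slc25a51, Slc25a4 and Slc25a39 each overlapped with the next in this order, although the lowest value of Slc25a5 (145 CPM) was above the highest of Slc25a39 (132 CPM). A gap followed, since the lowest value of Slc25a39 was 120 CPM and the highest of Slc25a12 was 85.6 CPM. Further gaps lay between Slc25a11 and Slc25a46 (53.4 against 52.3 CPM), between Slc25a17 and Slc25a24 (41.2 against 35.5 CPM) and between Slc25a40 and Slc25a35 (7.82 against 7.62 CPM). The gaps below Slc25a11 and below Slc25a40 were narrow, and counting error was not allowed for, so the order there is not firm. All other neighbours overlapped.

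No carrier differed between the genotypes at an adjusted p under 0.05. By edgeR's quasi-likelihood F test, adjusted after Benjamini and Hochberg over all 11464 tested genes, 0 of 35 carriers rose and 0 fell, where 2.66% of all tested genes were called (1.45% rose and 1.21% fell). The smallest adjusted p of a carrier was 0.139. DESeq2 and limma-voom also called 0 carriers. An unadjusted p under 0.05 was reached by 4 carriers in edgeR, or 11.4% of those tested, where 13.5% of all tested genes reached it. It was reached by 2 of 40 carriers in DESeq2, run without the filter, and by 6 of 35 in limma-voom. No share over all genes is given for these other methods. The median log2 fold change, knockout minus wild type, was -0.02 over the carriers and 0.00041 over all genes. The median of its absolute size was 0.15 for the carriers and 0.18 for all genes. Knockout libraries were both above the wild-type libraries in 7 carriers, or 20.0%, where 21.5% of all tested genes had this pattern. Both lay below in 9 carriers, or 25.7%, where 21.9% of all tested genes did.

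How large a difference the data leave room for depended on the level. The 95% interval of the log2 fold change, from the same fit and for each gene alone, lay within a 2-fold change in either direction for 24 of the 35 carriers, and within a 1.5-fold change for 19. Of the 25 carriers with a mean of at least 10 CPM most had such an interval, whereas under 10 CPM only 1 of the others, Slc25a40, did. Standard errors (SE) of the log2 fold change ran from 0.07 for Slc25a3 to 1.05 for Slc25a53. The lowest carriers are therefore described by their counts, and only large differences could be called in them.

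**Figure D2:**
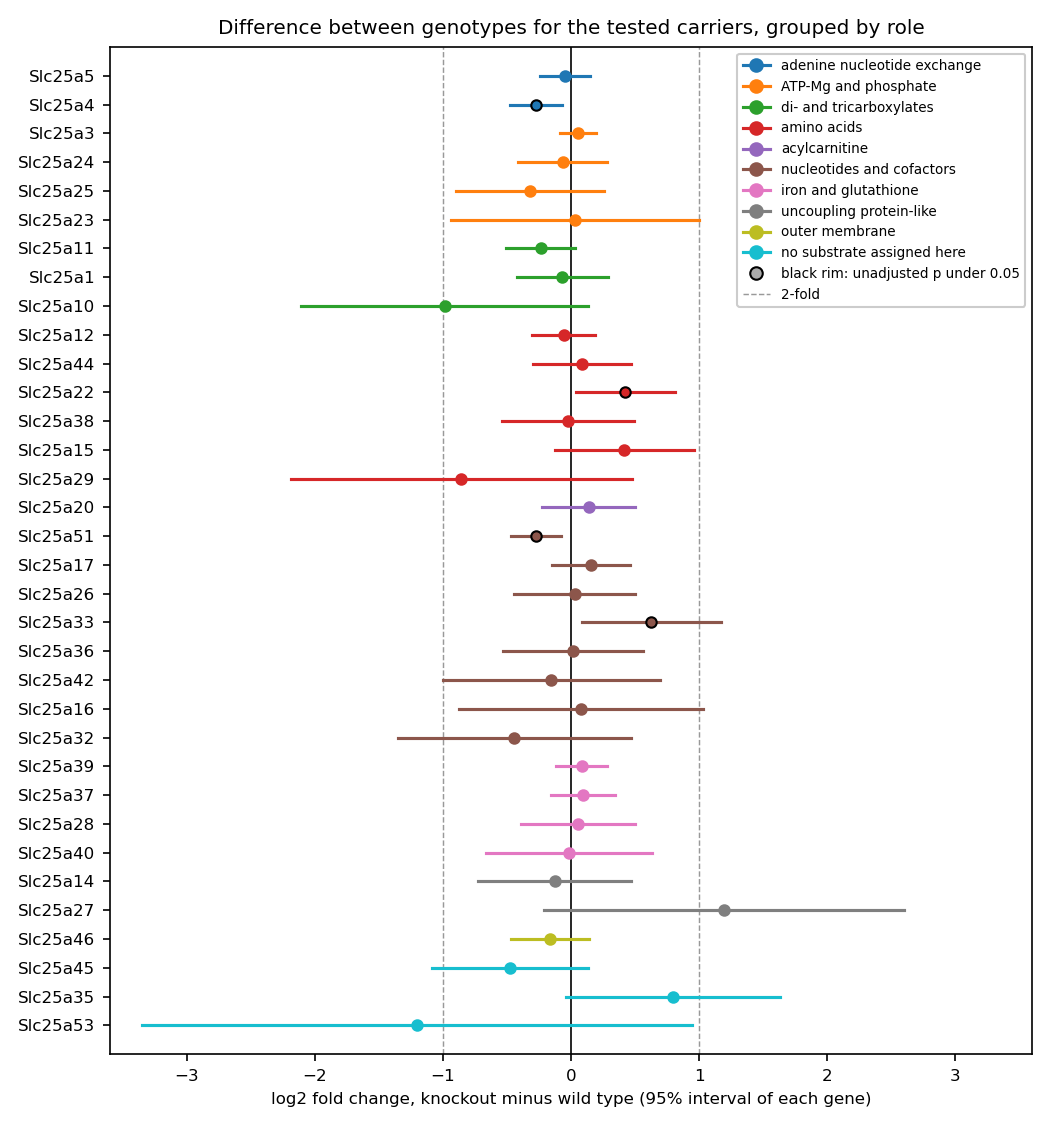
log2 fold change of 34 of the 35 tested carriers, knockout minus wild type, with the 95% interval of each gene, grouped and coloured by role and ordered by level within a role. A black rim marks the 4 carriers with an unadjusted p under 0.05 (Slc25a4, Slc25a22, Slc25a51 and Slc25a33), of which 2 lie to each side of 0, and the intervals widen towards the low genes of each role.

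The ADP/ATP translocases swap ADP from the cytosol for ATP made in the matrix, and the mouse has 3 of them by the member rule. Slc25a5 is the form of dividing cells, Slc25a4 that of heart and muscle, and Slc25a31 that of male germ cells. Slc25a5 (X chromosome, 36795651 to 36798807, GRCm38) was at 145 and 162 CPM in wild type and at 146 and 151 CPM in knockout. The genotypes overlapped, and the log2 difference was -0.05 (SE 0.095, interval -0.24 to 0.15, adjusted p = 0.899). Slc25a5 has a processed pseudogene in the annotation, Slc25a5-ps, and reads that match both may have been split or left out. Pseudogenes under other names were not looked for, neither for Slc25a5 nor for Slc25a4. Slc25a4 (chromosome 8, 46206797 to 46211284) was at 138 and 155 CPM in wild type and at 127 and 116 CPM in knockout. Both knockout libraries were below both wild-type libraries, but the difference of -0.27 (SE 0.10, 95% interval -0.48 to -0.07) did not pass the test (adjusted p = 0.176). In counted reads the muscle form thus stood nearly level with the form of dividing cells in wild type. Whether reads lost to pseudogenes lowered either of them was not tested. Slc25a31 had no count in any of the 4 libraries, which allows a level of up to 0.0806 CPM over all of them. Slc25a5 held 51.1% of the counts of the Slc25a5 and Slc25a4 pair in each wild-type library and 53.5% and 56.5% in the knockout libraries. The exact 95% binomial intervals, which cover counting error only, were 49.2% to 53.1% and 49.3% to 52.9% in wild type, and 51.6% to 55.4% and 54.5% to 58.5% in knockout. No test of this share was made.

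The 3 translocases are set side by side because they share a substrate while their mRNA lay between 0 counts and over 100 CPM. Their start regions are printed as the 150 bases that end just before the RefSeq start on GRCm38.p6, on the strand of the gene, with CpG dinucleotides in capitals. They lie at chrX:36795447-36795596 (plus strand), chr8:46211063-46211212 (minus strand) and chr3:40708721-40708870 (plus strand). The starts differ between annotations: the Slc25a4 stretch lies inside the GENCODE span given above, the Slc25a31 stretch runs past the GENCODE start at 40708855, and the Slc25a5 stretch ends short of the GENCODE start.
Slc25a5: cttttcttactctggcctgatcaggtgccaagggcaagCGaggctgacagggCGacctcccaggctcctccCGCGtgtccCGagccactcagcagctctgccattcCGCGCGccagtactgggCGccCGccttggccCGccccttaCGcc
Slc25a4: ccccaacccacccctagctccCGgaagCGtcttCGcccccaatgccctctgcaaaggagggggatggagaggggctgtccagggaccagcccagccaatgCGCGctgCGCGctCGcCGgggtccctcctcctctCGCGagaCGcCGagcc
Slc25a31: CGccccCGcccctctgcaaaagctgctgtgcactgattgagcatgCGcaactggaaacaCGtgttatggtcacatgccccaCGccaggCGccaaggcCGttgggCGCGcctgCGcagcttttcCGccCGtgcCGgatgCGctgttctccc
The 150 bases hold 12 CpGs in Slc25a5, 13 in Slc25a4 and 14 in Slc25a31. Over 250 bases before the start the counts were 14, 18 and 18. Slc25a31, which had no count, thus held as many CpGs over the 250 bases before its RefSeq start as Slc25a4. Over the family, the 26 tested carriers with an entry had a median of 15.5 CpGs in 250 bases (4 to 40), and the 9 untested carriers with an entry a median of 6 (1 to 18). The 5 carriers with an entry and no count in any library had a median of 10 (4 to 18). Of all symbols with an entry, split by any count and not by the filter, 11504 with a count had a median of 14. The 5712 without a count had a median of 3. For genes with several starts the first entry was taken, and 11 carriers had no entry.

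Phosphate and ATP-Mg carriers set the pools of phosphate and adenine nucleotides in the matrix, and 0 of 4 tested members were called. Slc25a3, the phosphate carrier of ATP synthesis, which also brings in copper, was the highest carrier and ranked 171 among all tested genes by mean level. Slc25a3 (chromosome 10, 91116574 to 91124059) was at 606 and 602 CPM in wild type and at 663 and 592 CPM in knockout, so that the wild-type libraries lay between the knockout libraries. Its log2 fold change was 0.06 (SE 0.07, adjusted p = 0.813), with an interval from -0.09 to 0.20. The ATP-Mg/phosphate carriers are calcium-regulated exchangers that adjust the matrix adenine nucleotide content. Slc25a24 was the highest of them, at 35.5 and 30.8 CPM in wild type and 31.4 and 31.9 CPM in knockout. Slc25a25 followed at 12.3 and 12.2, and 10.6 and 8.92 CPM, and Slc25a23 at 3.87 and 4.76, and 4.91 and 3.92 CPM. Slc25a41 had no count. Slc25a23 has an antisense gene over its last 500 bases, and whether the counting used strand was not stated.

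Among carriers of di- and tricarboxylates, 0 of 3 tested members were called. Slc25a11 exchanges oxoglutarate for malate and is part of the malate-aspartate shuttle, which carries reducing equivalents from cytosolic NADH into the matrix. Its levels (chromosome 11, 70644196 to 70647479) were 62.7 and 72.1 CPM in wild type and 61.0 and 53.4 CPM in knockout. The knockout libraries were the lower ones, by -0.24 on the log2 scale (SE 0.13, adjusted p = 0.452). Slc25a1, the citrate carrier that exports acetyl units for fatty acid synthesis, was at 30.7 and 32.6 CPM in wild type and at 28.3 and 32.1 CPM in knockout (-0.07, interval -0.42 to 0.29). Slc25a10, which exchanges malate or succinate for phosphate, had only 41 and 52 counts in wild type and 13 and 35 in knockout. The knockout counts were the lower ones, and the interval from -2.11 to 0.13 includes 0. Slc25a21, the oxodicarboxylate carrier, had no count.

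Of the amino acid carriers, 6 of 8 were tested and 0 were called. Slc25a12, a calcium-regulated aspartate/glutamate exchanger of the malate-aspartate shuttle, was the highest of the group. Slc25a12 (chromosome 2, 71271063 to 71367749) was at 85.0 and 79.9 CPM in wild type and at 72.7 and 85.6 CPM in knockout, with overlap of the genotypes and a difference of -0.06 on the log2 scale (SE 0.12, adjusted p = 0.903). Slc25a22, a glutamate carrier, was higher in both knockout libraries. Slc25a22 (chromosome 7, 141429744 to 141437892) had 24.7 and 21.2 CPM in wild type and 32.1 and 29.5 CPM in knockout. The difference of 0.42 (SE 0.19, 95% interval 0.04 to 0.81) did not pass the test (adjusted p = 0.298). Slc25a18, the other glutamate carrier, had 14 and 6 counts in wild type and 0 and 2 in knockout, too few to be tested. The pooled ratio of wild type to knockout was 10.2, with a counting interval from 2.49 to 90.3 that leaves out the spread between libraries. Fitted without the filter, Slc25a18 had an adjusted p of 0.571 in edgeR. Its 3′ end overlaps Atp6v1e1 on the other strand, so its few reads are uncertain.

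Slc25a15, which exchanges ornithine for citrulline, was at 13.0 and 9.72 CPM in wild type and at 13.2 and 17.1 CPM in knockout. Both knockout values were above both wild-type values, with adjusted p = 0.537. Its relative Slc25a2 had 2 counts in knockout replicate 1 and none elsewhere. Slc25a44, linked to branched-chain amino acids, was at 25.2 to 31.4 CPM over the 4 libraries, and Slc25a38, the glycine carrier needed for the first step of haem synthesis, at 12.3 to 16.5 CPM. Slc25a29, a carrier of basic amino acids, was low, with 33 and 24 counts in wild type and 22 and 11 in knockout. Slc25a20 brings acylcarnitines into the matrix for beta-oxidation in exchange for carnitine. It was at 26.0 and 30.2 CPM in wild type and at 30.8 and 31.1 CPM in knockout (0.14, interval -0.23 to 0.50).

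Carriers of nucleotides and cofactors held 2 of the 4 lowest p-values, in opposite directions, and 0 of 9 tested members were called. Slc25a51 brings NAD into the matrix. It was the third highest carrier and ranked 1190 among all tested genes. Slc25a51 (chromosome 4, 45395923 to 45408766) was at 155 and 170 CPM in wild type and at 130 and 138 CPM in knockout, so that the genotypes did not overlap. Its difference of -0.27 (SE 0.095, 95% interval -0.47 to -0.08) had the smallest p of all carriers and did not pass the test (adjusted p = 0.139). Slc25a33 and Slc25a36 both carry pyrimidine nucleotides, which mitochondrial DNA and RNA synthesis use. Slc25a33 (chromosome 4, 149744036 to 149774277) had 12.5 and 9.62 CPM in wild type and 13.6 and 20.6 CPM in knockout. The knockout libraries were the higher ones, by 0.63 (SE 0.27, 95% interval 0.08 to 1.17), and the test was not passed (adjusted p = 0.275). Knockout replicate 2 carried most of this, and without it the difference was 0.30. Slc25a36 was at 15.5 and 10.9 CPM in wild type and at 11.8 and 14.9 CPM in knockout. Slc25a36 held 55.3% and 53.1% of the counts of the pair in wild type and 46.4% and 42.0% in knockout. The counting intervals of the genotypes overlapped for 3 of the 4 comparisons of single libraries.

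Slc25a17, a peroxisomal carrier of CoA and related cofactors, was at 41.2 and 42.6, and 42.1 and 51.3 CPM. Slc25a26, which imports S-adenosylmethionine, was at 15.1 to 18.9 CPM, and the gene Lrig1 overlaps its 3′ end on the other strand. Slc25a32, the folate carrier that links cytosolic and mitochondrial one-carbon metabolism, was low at 3.48 to 6.13 CPM. Slc25a42, a CoA carrier, was at 5.01 to 5.92 CPM, and Slc25a16 at 2.64 to 7.17 CPM, both extremes being wild-type libraries.

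Iron and glutathione carriers were close between the genotypes, with 0 of 4 called and log2 fold changes from -0.02 to 0.09. Slc25a39, a carrier of glutathione into mitochondria, was at 120 and 128 CPM in wild type and at 131 and 132 CPM in knockout. Slc25a39 (chromosome 11, 102402985 to 102407946) had both knockout values above both wild-type values, with a difference of only 0.08 (SE 0.099, adjusted p = 0.797). Its relative Slc25a40 was at 7.82 to 11.6 CPM, and Slc25a39 held 91.2% to 94.3% of the counts of the pair over the 4 libraries. Slc25a37 and Slc25a28 are mitoferrins 1 and 2, which supply iron for haem and iron-sulfur clusters. Mitoferrin 1 is best known from red cell precursors, and yet it was the higher form here. Slc25a37 (chromosome 14, 69241848 to 69285112) was at 68.6 and 67.5 CPM in wild type and at 77.3 and 67.9 CPM in knockout (0.09, SE 0.12, adjusted p = 0.824). Slc25a28 was at 19.8 and 18.8, and 21.9 and 18.2 CPM. Slc25a37 held 77.6%, 78.2%, 77.9% and 78.9% of the counts of the pair in wild-type replicates 1 and 2 and knockout replicates 1 and 2. Erythroid marker mRNA varied between the same libraries, with a summed level of 172 and 36.4 CPM in wild type and 68.8 and 198 CPM in knockout. Of its 5 tested markers 0 were called by edgeR, 0 had an unadjusted p under 0.05, and none was at 0 in all libraries. The part of erythroid RNA in the Slc25a37 levels was not tested.

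**Figure D3:**
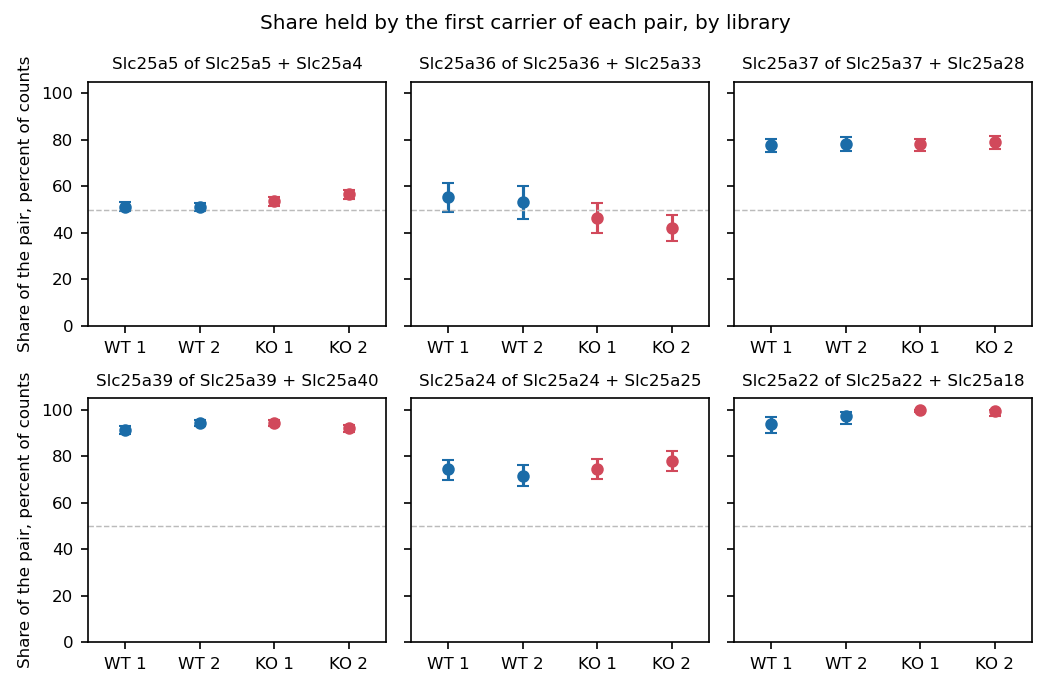
Share of the counts of a pair of carriers with a like substrate that fell on the first named carrier, in percent, for each library (blue wild type, red knockout), with exact 95% binomial intervals for counting error. Slc25a37 stays between 77.6% and 78.9% of its pair in all libraries, Slc25a5 lies at 51.1% in wild type and at 53.5% and 56.5% in knockout, and Slc25a36 lies above 50% in wild type and below it in knockout.

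Slc25a46 is a divergent member that sits in the outer membrane and takes part in the shaping of mitochondria. It was at 48.6 and 52.3 CPM in wild type and at 39.6 and 50.6 CPM in knockout (-0.16, SE 0.15, adjusted p = 0.703). Among relatives of the uncoupling proteins, Slc25a14 was at 9.21 to 14.0 CPM with overlap of the genotypes. Slc25a27 was near the bottom of the tested range, at 1.71 and 0.951 CPM in wild type and 3.68 and 2.39 CPM in knockout. Its counts of 15 and 9, and 36 and 22, put the knockout above, with an interval from -0.21 to 2.60 and adjusted p = 0.475. Slc25a30 had no count.

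Of the 8 carriers given no substrate here, 3 were tested and 0 were called. Slc25a45 was at 15.0 and 10.9 CPM in wild type and at 11.3 and 7.29 CPM in knockout. Slc25a35 was at 5.69 and 3.07, and 7.57 and 7.62 CPM, both knockout libraries being higher (0.80, interval -0.04 to 1.63, adjusted p = 0.394). Rangrf overlaps the 3′ end of Slc25a35 on the other strand, so the value of Slc25a35 is uncertain. Slc25a53 had 19 and 5 counts in wild type and 11 and 0 in knockout. Slc25a47 had 2 and 13, and 3 and 5 counts, Slc25a34 had 2 and 2, and 1 and 0, and Slc25a43 had 0 and 0, and 3 and 1. Slc25a48 and Slc25a54 had no count.

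Lists of genes that act with the carriers were set beside them, and 4 of their 134 tested members changed. This is 2.99%, near the 2.66% of all tested genes. The list of enzymes of the malate-aspartate shuttle and citrate export had 1 fall among 8 tested genes and a median log2 fold change of -0.07. The gene that fell was Mdh1, the cytosolic malate dehydrogenase, from 132 and 140 CPM to 102.6 and 108.7 CPM (-0.37, SE 0.10, adjusted p = 0.0415). The other cytosolic and mitochondrial enzymes of the shuttle were not called, with Got1 at 295 ± 3.89 and 305 ± 5.46 CPM, Got2 at 242 ± 0.622 and 226 ± 5.50 CPM, and Mdh2 at 449 ± 18.5 and 448 ± 15.9 CPM (mean ± SD, n = 2 each, wild type first). ATP synthase subunits, which use the ADP and phosphate that Slc25a4, Slc25a5 and Slc25a3 bring in, had 1 fall among 18 and a median of -0.10. That was Atp5h, a peripheral stalk subunit, from 244 and 242 CPM to 189 and 202 CPM (-0.32, SE 0.085, adjusted p = 0.0335). Mdh1 and Atp5h each lost their call when any 1 library was left out, with adjusted p of 0.0551 to 0.32 for Mdh1 and 0.0858 to 0.351 for Atp5h. Their log2 fold changes in those fits were -0.41 to -0.32 and -0.36 to -0.27. Both also lost the call with library size as the only scaling (0.0692 and 0.0614), and Mdh1 with DESeq2 (0.0955) and with replicate number as a block (0.0592).

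Enzymes of proline, ornithine and glutamate metabolism had 2 rises among 13 tested genes, a median of 0.27 and no fall. Asns, asparagine synthetase, rose from 167 and 180 CPM to 244 and 252 CPM (0.52, SE 0.086, adjusted p = 0.000189). Odc1, which makes putrescine from ornithine, rose from 298 and 248 CPM to 347 and 339 CPM (0.33, SE 0.083, adjusted p = 0.0216). Asns was called in all 13 alternatives, whereas Odc1 was lost without wild-type replicate 2 (0.422), where its log2 fold change was 0.20, without knockout replicate 1 (0.203), without knockout replicate 2 (0.0926) and with upper quartile scaling (0.0587). Of the carriers of the same substrates, none was called. Slc25a15 and Slc25a22 were higher in both knockout libraries, a pattern of 21.5% of all tested genes, whereas Slc25a12 overlapped and Slc25a18 was lower in both.

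In the other lists 0 genes were called in either direction by edgeR. These were 15 genes of carrier import through the outer membrane and the TIM22 complex, with a median of 0.09, and 13 other transporters of the inner membrane (0.13). Iron-sulfur cluster and haem genes (21 tested), glutathione genes (9) and genes of the carnitine route (10) had medians of -0.02, -0.01 and -0.03. One-carbon and glycine genes (13) and regulators of mitochondrial gene expression (11) had medians of 0.12 and 0.08. An unadjusted p under 0.05 was reached by 2, 2, 3, 0, 1, 2 and 2 genes of these lists, in the order given, together 12 of 92 or 13.0%, where 13.5% of all tested genes reached it. In the lists with a call it was reached by 2 of 8 shuttle and citrate export genes and 3 of 18 ATP synthase genes. The proline, ornithine and glutamate list had 5 of 13, and the family members with other symbols had 1 of 3. Of 3 tested SLC25 family members with other symbols, Mtch1 and Mtch2, which lie in the outer membrane, were at 98.8 ± 1.25 and 98.0 ± 6.99 CPM, and 141 ± 16.1 and 131 ± 6.99 CPM. Ucp2, the uncoupling protein relative of lymphocytes, was at 69.6 and 82.2 CPM in wild type and at 66.9 and 55.8 CPM in knockout (-0.31, SE 0.13, adjusted p = 0.273), while Ucp1 and Ucp3 had no count.

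**Figure D4:**
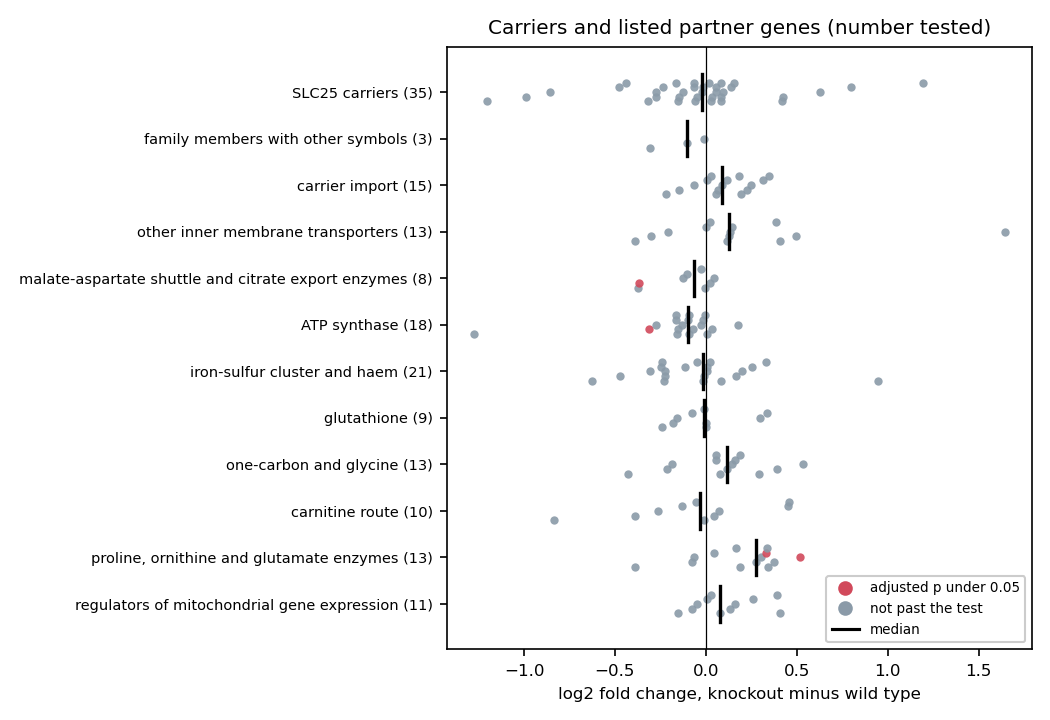
log2 fold change, knockout minus wild type, of each tested carrier and of each tested gene of the lists set beside the carriers, with 1 point per gene, a black bar at the median and red for an adjusted p under 0.05. The carrier row has no red point and a median of -0.02, and the red points are Mdh1, Atp5h, Odc1 and Asns.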

How the data were processed

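Gene expression was measured in 2 wild-type and 2 Pdk4-knockout libraries. The authors deposited raw counts, 1 row per gene symbol and 1 table per library. Per the labels' protocols, Lexogen QuantSeq libraries took 500 ng of RNA each. Bowtie2, mm10 and edgeR are named, without role or version, per the submitters' processing notes. Nothing used here states the counting tool, annotation, use of strand or handling of multiply matching reads, so values of overlapping or near-identical genes are uncertain.

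Counts of 35 repeated symbols were summed, leaving 23238 of 23282 rows. Of these, 11464 passed filterByExpr and were fitted in edgeR 4.0.16 (R 4.3.3) with TMM, estimateDisp, glmQLFit and glmQLFTest on genotype (two-sided), and p-values were adjusted by Benjamini and Hochberg over all of them. A gene is called at an adjusted p under 0.05. The SE is the log2 fold change divided by the square root of F. The fit was run on counts simulated from its own dispersion, which does not check the scatter of these libraries. Alternatives were other scalings, no or a stricter filter (mean of 5 CPM), DESeq2 1.42.0, limma-voom (limma 3.58.1), Rn45s left out (11.6% to 12.3% of counts), replicate number as a block, and each library left out. Members, lists and tests were chosen with earlier results of these data known, and pairs of carriers after their values were seen. By rule, carriers with an unadjusted p under 0.05 and those among the 10 highest are given in full, others by level or counts, and called genes of each list by name. Positions are from GENCODE vM21 (GRCm38, the assembly of mm10), matched by symbol for all 46 carriers, and start regions are from RefSeq (GRCm38.p6). Certain family members are not reported here, of which the totals over the 46 include 1.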

Additional observations from a re-analysis of the deposited data

How the results depend on the processing

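In all 13 alternatives 0 carriers were called in either direction, and 5 of the 156 combinations of a carrier chosen by the rule and an alternative changed sign, all near 0. With each library left out in turn, the log2 fold change ran from -0.126 to 0.0329 for Slc25a5 (highest without wild-type replicate 2), and, with the turned sign without knockout replicate 1, from -0.0299 to 0.1345 for Slc25a3, from -0.181 to 0.0547 for Slc25a12, from -0.0039 to 0.183 for Slc25a37 and from -0.351 to 0.0036 for Slc25a46. Of the tested carriers outside the rule, some also changed sign over the alternatives and others kept it. Slc25a16 ran from -0.473 to 0.964 and Slc25a36 from -0.217 to 0.291. The median of the carriers was -0.000262 with library size only, -0.037 with no filter and -0.044 with limma-voom, and -0.146 to 0.010 with each library left out. Without overlap, the counts of carriers higher in knockout were 10 to 13 and of carriers lower 14 to 17 in those fits, in which the lone library of a genotype is assumed to vary like the other genotype. With 1 library against 2 this pattern is more common by construction: carriers higher were 27.0% to 36.1% of those tested and carriers lower 37.8% to 47.2%, where all tested genes had 35.04% to 36.03% and 35.7% to 36.3%. Over all genes 305 were called, and 170 to 293 with a library left out (170 when knockout replicate 1 was left out, 184 when wild-type replicate 2 was). The calls over all genes were 250 with upper quartile scaling, 284 with library size only, 377 with no filter and 356 with the stricter filter. They were 322 with limma-voom and 207 with DESeq2. Rises were 54.4% of all calls in the main fit, 50% with upper quartile scaling and 60.6% with library size only. Of the listed partner genes, 2 rose and 2 fell in the main fit. Rises numbered 1 with upper quartile scaling, 3 with library size only, 4 with no filter, the stricter filter or limma-voom, and 1 to 4 with a library left out. Falls numbered 0 with library size only, 1 with DESeq2, 3 with no filter or the stricter filter, and 0 to 2 with a library left out. With the replicate block 1 partner gene fell and 260 genes were called overall. With replicate number as a block no carrier was called, and the deviations of same-numbered libraries correlated at 0.0028, so the numbers were not taken as pairs. The causes were not tested. Depth limits the carriers under 10 CPM, where intervals mostly reached beyond a 2-fold change.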
